A study of Mus musculus with 3 samples.

Results

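The 10 genes described here encode the machinery that makes peptides in the cytosol and loads them onto MHC class I molecules: the light chain gene B2m, the peptide transporter genes Tap1 and Tap2, the loading factor gene Tapbp (tapasin), the immunoproteasome subunit genes Psmb8, Psmb9 and Psmb10, the proteasome activator genes Psme1 and Psme2, and the transactivator gene Nlrc5. They were taken by symbol from a fixed list, and all 10 were found among the 19937 genes that had a probe set naming 1 gene. A gene with more than 1 such probe set was read from the brightest of them, which concerned only Nlrc5, because the other 9 genes had 1 probe set each.

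The values come from Affymetrix Mouse Gene 1-ST arrays hybridised with amplified RNA of mature medullary thymic epithelial cells, sorted from the thymus as EpCAM+, CD45-, Ly51low cells with high MHC class II. There were 3 libraries, all on the C57b/6 strain by label and from mice aged 6 weeks. The AireKO library came from Aire–/– mice, which lack Aire in every cell that would express it. The Sirt1cKO library came from mice with Sirt1fl/fl and Foxn1-Cre, a Cre active in thymic epithelium, and the WT library from Sirt1fl/fl mice without Cre, so these 2 groups share the floxed allele. RNA came from pools of typically 3 mice. Each genotype had 1 library, so no test, error or p-value is possible and every difference below describes 2 libraries, not the genotypes. In bulk RNA of this kind, fewer cells of a type and less RNA per cell cannot be told apart.

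Almost every cell displays peptides on MHC class I. The proteasome cuts proteins, TAP1 and TAP2 carry the fragments into the endoplasmic reticulum, and tapasin holds an empty heavy chain with its light chain beside the transporter until a peptide binds. Interferon gamma replaces the catalytic subunits of the standard proteasome with PSMB8, PSMB9 and PSMB10 and induces the PA28 activator built from PSME1 and PSME2, and NLRC5 drives the class I genes as CIITA drives the class II genes. In the thymic medulla, epithelial cells use this route to show self-antigens to developing CD8 T cells.

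The promoters of the genes differ in their exact matches to interferon and NF-kB motif patterns. Of these promoters, 3 are shown because their genes stood at different places in the results. Windows from 250 bases before to 50 bases after the transcription start were available from RefSeq (build GRCm38.p6) for 8 of the 10 genes, with 2 start sites for Psme2. Tap1 and Psmb9 are divergent neighbours, and their windows share 275 of 300 bases, so the first sequence stands for both genes. Capitals mark motif matches on either strand.
Tap1, chr17:34187306-34187605, plus strand: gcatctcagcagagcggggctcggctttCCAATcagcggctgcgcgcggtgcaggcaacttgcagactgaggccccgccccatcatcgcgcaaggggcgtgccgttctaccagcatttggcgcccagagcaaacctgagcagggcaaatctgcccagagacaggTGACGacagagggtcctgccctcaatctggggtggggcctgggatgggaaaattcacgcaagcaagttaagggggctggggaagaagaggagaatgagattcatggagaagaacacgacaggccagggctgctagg
B2m, chr2:122147437-122147736, plus strand: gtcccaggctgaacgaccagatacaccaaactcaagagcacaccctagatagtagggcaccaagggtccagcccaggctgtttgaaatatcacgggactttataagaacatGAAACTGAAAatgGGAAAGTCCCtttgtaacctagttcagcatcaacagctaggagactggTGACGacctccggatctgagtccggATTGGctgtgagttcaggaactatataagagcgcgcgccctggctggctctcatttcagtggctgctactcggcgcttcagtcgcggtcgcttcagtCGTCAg
Psme1, chr14:55578244-55578543, plus strand: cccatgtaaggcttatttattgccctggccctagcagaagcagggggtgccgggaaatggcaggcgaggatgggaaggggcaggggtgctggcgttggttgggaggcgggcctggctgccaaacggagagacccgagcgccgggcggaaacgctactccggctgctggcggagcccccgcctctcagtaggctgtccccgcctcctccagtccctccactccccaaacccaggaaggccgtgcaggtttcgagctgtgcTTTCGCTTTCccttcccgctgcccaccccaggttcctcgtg
The motifs searched were the interferon-stimulated response element core GAAANNGAAA, the gamma-activated site TTCNNNGAA, the kappaB motif, the CCAAT box CCAAT and the cyclic AMP response element core TGACG, and no match of one motif overlapped a match of another. The response element core was found in the windows of B2m and Psme1, and in 3.44% of the 32851 windows of all genes. The gamma-activated site was found in Psmb8 alone among the members (8.30% of all windows) and the kappaB motif in B2m alone (4.51%). The CCAAT box occurred in B2m, Tap1, Psmb9 and Tapbp (37.4% of all windows), and TGACG in B2m, Tap1, Psmb9 and Psme2 (20.8%). The Psmb10 window held none of these letters. A match is a description of these letters and not evidence of binding. The lack of an exact match is likewise not evidence that a factor does not bind.

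All 10 genes were well above background. The 95th percentile of 1027 olfactory receptor genes, expected to be silent in most tissues other than the nose, lay at log2 6.89 in AireKO, 6.34 in Sirt1cKO and 6.02 in WT, while the lowest value of any of the 10 genes was log2 9.11. All 10 also passed the minimum of log2 6.81 in the brightest library that defines the 12556 measured genes used as the comparison below. The median deposited intensity was 116.4 in AireKO, 111.2 in Sirt1cKO and 107.8 in WT.

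**Figure D1:**
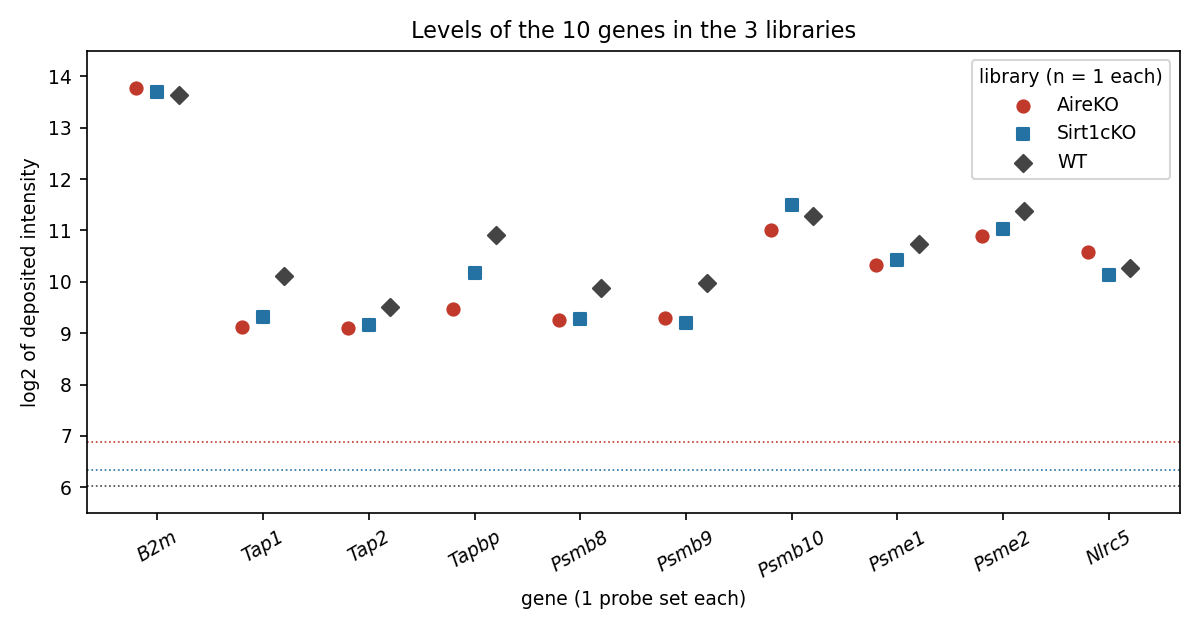
Log2 of the deposited intensity (y axis) of each of the 10 genes (x axis) in the AireKO, Sirt1cKO and WT libraries, 1 point per library, with dotted lines at each library's 95th percentile of olfactory receptor genes. All points lie above the lines, and Tap1, Tapbp, Psmb8 and Psmb9 show the widest gaps between the knockout libraries and WT.

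The labels carry conflicts that bear on every direction. Title and genotype put the libraries in their groups, but the description fields of AireKO and Sirt1cKO name each other. The targeted genes did not settle this: Aire had intensities of 2999 in the library labelled AireKO, 2414 in the library labelled Sirt1cKO and 4018 in WT, and Sirt1 had 2741, 2466 and 2710 in the same libraries. Either probe set may lie outside the deleted part, and neither label is checked by these values, so AireKO and Sirt1cKO stand for the libraries labelled so. The class II gene H2-Ea, which C57BL/6 mice do not express, had an intensity of 9609 in AireKO, against 59.6 in Sirt1cKO and 48.4 in WT. The female-specific RNA Xist had 107.8 in AireKO, 2822 in Sirt1cKO and 4608 in WT, and the Y-linked Eif2s3y had 863.7, 483.2 and 18.8, so the pools also differed in sex-linked signal. The part of genetic background and sex in the values below was not tested.

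The first question was how the class I machinery stood without Aire. Tapbp and Tap1 were at least 2-fold lower in AireKO than in WT, and none of the 10 genes was 2-fold higher. The 2-fold lower share of all measured genes was 8.46% and the 2-fold higher share 2.68%. These shares were 1062 genes lower and 336 higher, and after centring each array on the median of its measured genes, which added 0.27 to every log2 difference, 548 lower and 706 higher. Centring instead on the median of all probe sets, an alternative chosen after seeing the data, lowered every difference by 0.11 and gave 1423 lower and 263 higher. At 1.5-fold the lower genes were 4 of 10, with Psmb9 and Psmb8 added, against 23.6% of measured genes. Psmb8 and Psmb9 fell short of 1.5-fold after quantile normalization, loess or centring on measured genes, at -0.34 and -0.41 after the last. Psme2 passed it at -0.60 after centring on all probe sets. The share of measured genes at 1.5-fold was not counted under these scalings. The median log2 difference of the 10 genes was -0.45, beside -0.19 for measured genes, and 8 of the 10 lay below 0, as did 63.7% of measured genes.

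The second question was how the same genes stood without Sirt1 in thymic epithelium. In Sirt1cKO, 0 of the 10 genes were 2-fold lower or 2-fold higher than in WT, against 1.68% and 0.804% of measured genes. At 1.5-fold, 4 of 10 were lower, namely Tap1, Psmb9, Tapbp and Psmb8, against 8.27% of measured genes. Psmb8 fell short of 1.5-fold after quantile normalization, loess or centring on measured genes, at -0.50 after the last. The median log2 difference of the 10 genes was -0.36, beside -0.07 for measured genes, and 8 of the 10 lay below 0, as did 58.4% of measured genes. Both comparisons use the same WT library, so a high or low WT value enters both.

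**Figure D2:**
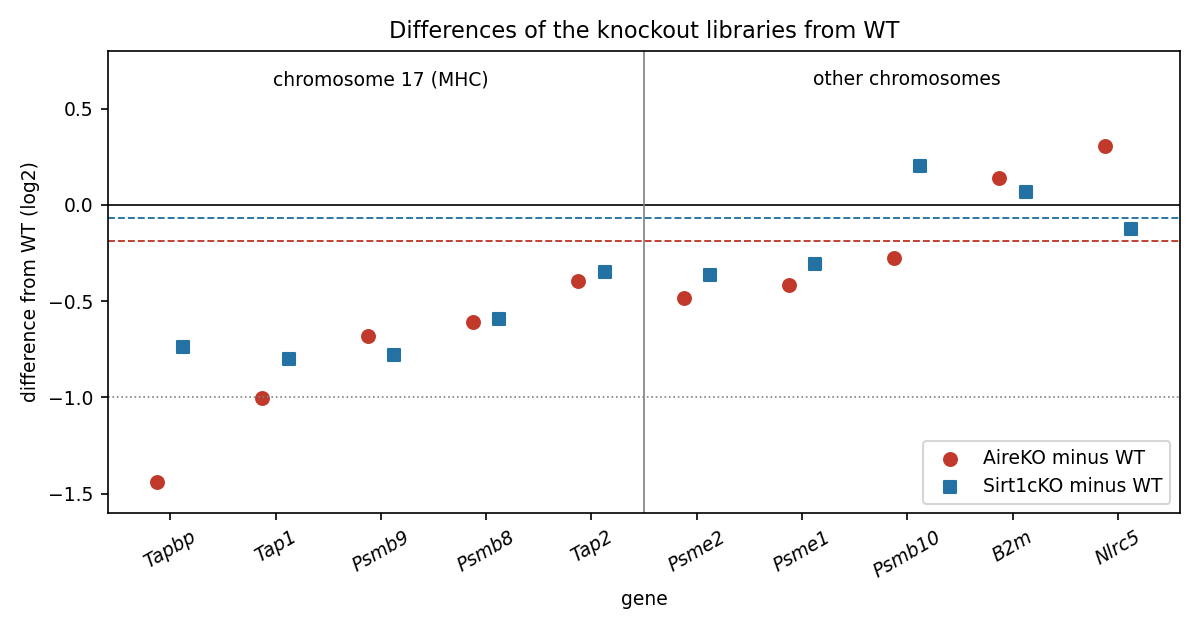
Log2 difference from WT (y axis) of the 10 genes (x axis), as circles for AireKO and squares for Sirt1cKO, with the genes on chromosome 17 left of the vertical line. Dashed lines mark the median difference of all measured genes in each comparison and the dotted line a 2-fold decrease. Tapbp and Tap1 in AireKO lie at or beyond the dotted line, and B2m lies above 0 in both.

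Among the transporter and loading genes, Tapbp differed most. Its intensity was 709.7 in AireKO, 1152 in Sirt1cKO and 1922 in WT. The log2 difference from WT was -1.44 in AireKO, a 2.71-fold lower value, and -0.74 in Sirt1cKO. In AireKO it stayed beyond 2-fold under every scaling tried, between -1.55 and -1.17. The annotation also gives 2 probe sets to Tapbp together with the ribosomal protein gene Rps3a1, and these cannot be assigned to either. Their log2 differences were -0.84 and -0.79 in AireKO, and -0.91 and -0.82 in Sirt1cKO, so they did not show the gap between the knockout libraries that the Tapbp probe set did.

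Tap1, one chain of the peptide transporter, had intensities of 554.8 in AireKO, 636.9 in Sirt1cKO and 1110 in WT. Both knockout libraries were low and close to each other. The log2 difference was -1.00 in AireKO, on the 2-fold line. It fell short of that line under 3 other scalings, which gave values up to -0.73, and passed it at -1.11 after centring on all probe sets. The difference was -0.80 in Sirt1cKO. Tap2, which encodes the other chain, had 552.7 in AireKO, 570.1 in Sirt1cKO and 726.8 in WT. Its differences of -0.40 and -0.35 were smaller than those of Tap1, although both products are needed for 1 transporter.

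The interferon-inducible catalytic subunits split. Psmb8, the subunit that replaces PSMB5, had 614.5 in AireKO, 621.5 in Sirt1cKO and 937.0 in WT. Psmb9, which replaces PSMB6 and shares its promoter region with Tap1, had 631.1 in AireKO, 588.7 in Sirt1cKO and 1012 in WT. The 2 knockout libraries thus lay together below WT for both genes, with log2 differences of -0.61 and -0.59 for Psmb8 and of -0.68 and -0.78 for Psmb9 in AireKO and Sirt1cKO. Psmb10, which replaces PSMB7, had 2067 in AireKO, 2875 in Sirt1cKO and 2501 in WT. Its differences of -0.27 in AireKO and 0.20 in Sirt1cKO had opposite signs, and the first shrank to -0.0041 after centring on measured genes.

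The genes of the standard subunits that these 3 replace were lower in part as well. Psmb5 had 1173 in AireKO, 1475 in Sirt1cKO and 2190 in WT, with log2 differences of -0.90 and -0.57. Psmb6 had 428.9, 528.1 and 951.4, with differences of -1.15 and -0.85. Psmb7 had 977.7, 792.4 and 938.6, with differences of 0.06 and -0.24. Taken pair by pair as a difference of differences, Psmb8 lay 0.29 above Psmb5 and Psmb9 0.47 above Psmb6 in AireKO, and -0.02 and 0.07 from them in Sirt1cKO. Psmb10 lay -0.33 from Psmb7 in AireKO and 0.45 above it in Sirt1cKO. Psmb8 and Psmb9 thus differed from WT by less than their standard counterparts in AireKO and by about as much in Sirt1cKO. Psmb11, the thymoproteasome subunit of cortical epithelium, was within background in AireKO at 92.9, and had 102.6 in Sirt1cKO and 107.0 in WT.

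The PA28 activator genes had like values. Psme1 had 1284 in AireKO, 1384 in Sirt1cKO and 1715 in WT, and Psme2 had 1913, 2078 and 2677. The log2 differences were -0.42 and -0.31 for Psme1 and -0.48 and -0.37 for Psme2 in AireKO and Sirt1cKO, with the order of the 3 libraries the same in both genes. A further probe set listed for Psme2 together with its near-identical copy Psme2b had differences of -0.45 and -0.38. Psme3, which encodes the nuclear activator PA28 gamma and is not induced by interferon, had 1023 in AireKO, 1170 in Sirt1cKO and 1212 in WT, differences of -0.25 and -0.05.

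B2m, the light chain shared by all class I molecules, differed least of the 10 genes on the deposited scale. Its intensity was 14043 in AireKO, 13327 in Sirt1cKO and 12738 in WT. The differences of 0.14 and 0.07 were the 2 smallest in size in their comparisons, and both were above 0 under every scaling tried. The rank depends on the scaling, since after centring on measured genes B2m was at 0.41 in AireKO, against -0.0041 for Psmb10, and at 0.16 in Sirt1cKO, against -0.027 for Nlrc5. The highest value on any array was 24241, in WT, so B2m lay in the upper part of the range of these arrays.

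Nlrc5, the class I transactivator, gave no single answer. The probe set used had 1523 in AireKO, 1130 in Sirt1cKO and 1231 in WT, log2 differences of 0.31 and -0.12. Nlrc5 had 19 probe sets, and 13 of them were below WT in AireKO and 16 in Sirt1cKO. In AireKO they ran from -1.46 to 0.51 with a median of -0.32, and 3 were at least 2-fold lower. The mean over the 19 was -0.37 in AireKO, the opposite sign of the brightest probe set, and -0.33 in Sirt1cKO. The 5 brightest probe sets had a median of 0.31 in AireKO and the 5 dimmest -1.00, a grouping made after the values were seen, and in Sirt1cKO these medians were -0.12 and -0.56. Of the 19, 16 were above background in all 3 libraries. The other 3 were within background in AireKO, among them the probe set at -1.46 and the one at -1.00. The sizes of those differences are therefore not resolved, and 1 of the 3 counted as 2-fold lower is affected. Another of the 3 counted as 2-fold lower, at -1.37, was barely above background in AireKO, at log2 6.90 against 6.89. All 19 are annotated to the same gene, so no direction is given for Nlrc5.

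**Figure D3:**
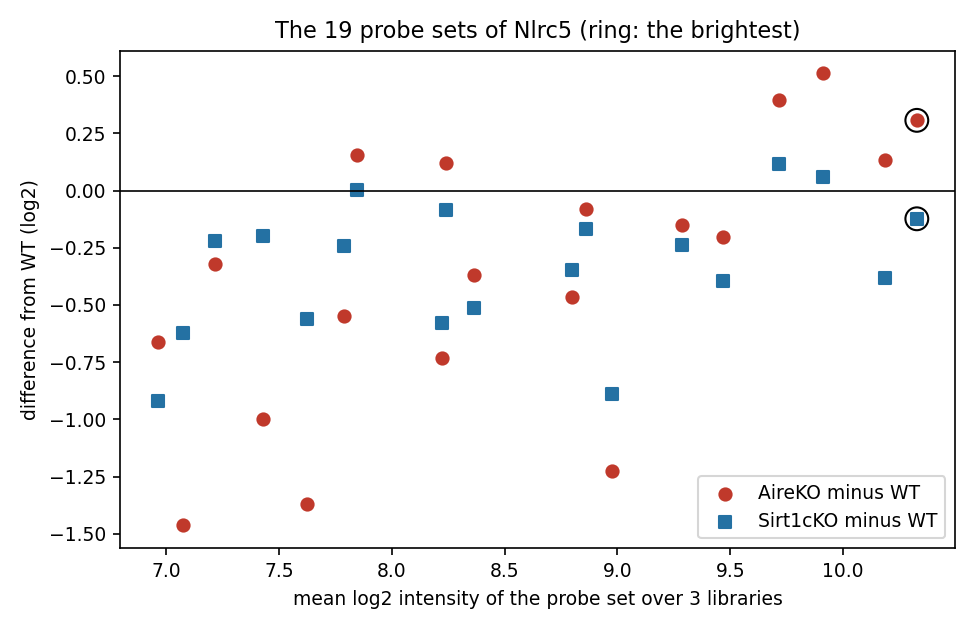
Log2 difference from WT (y axis) against mean log2 intensity over the 3 libraries (x axis) for the 19 probe sets of Nlrc5, as circles for AireKO and squares for Sirt1cKO, with the brightest probe set ringed. In AireKO the points run from -1.46 to 0.51, and the probe set at -1.46 was within background there. The sign does not follow brightness throughout, since a probe set of mean log2 8.97 is at -1.23 and one of 7.85 at 0.16.

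By position, the lowest values lay together. Psmb9, Tap1, Psmb8 and Tap2 are consecutive genes of the MHC on chromosome 17, and Tapbp lies in the same region, while the other 5 genes are on chromosomes 2, 8 and 14. The 5 chromosome 17 genes had log2 differences from -1.44 to -0.40 in AireKO, with a median of -0.68, and from -0.80 to -0.35 in Sirt1cKO, with a median of -0.74. The 5 others had medians of -0.27 in AireKO and -0.12 in Sirt1cKO, where measured genes had -0.19 and -0.07. Both medians read Nlrc5 from its brightest probe set. The mean over its 19 probe sets was -0.37 in AireKO and -0.33 in Sirt1cKO, so the medians depend on that choice. None of the 5 was 1.5-fold lower in either library on the deposited scale, beside 23.6% and 8.27% of measured genes. With 5 genes, 0 cannot be set apart from those shares. The other 21 measured genes between Tapbp and H2-Ea, a stretch chosen after the values were seen, had medians of -0.44 in AireKO and -0.42 in Sirt1cKO, and 16 and 18 of them lay below 0, beside 63.7% and 58.4% of measured genes. They include the class II genes H2-Ab1, at -0.94 and -0.45, and H2-Aa, at -0.65 and -0.66, but also the transport gene Vps52, at -1.28 and -0.75. The H2-Ea values above differ between the libraries in the same region, and the part of MHC haplotype in these differences was not tested.

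The knockout libraries were also set against each other, a comparison that does not use WT. The log2 differences of the 10 genes, Sirt1cKO minus AireKO, ran from -0.43 to 0.70. The 5th and 95th percentiles of measured genes were -0.56 and 0.82, so the spread of the 10 genes was like that of measured genes. None of the 10 genes differed 2-fold between Sirt1cKO and AireKO, where 1.04% of measured genes were 2-fold lower and 2.72% 2-fold higher in Sirt1cKO. The median log2 difference, Sirt1cKO minus AireKO, was 0.08, beside 0.11 for measured genes, and was -0.060 after loess and -0.097 after centring on measured genes. Tapbp was higher in Sirt1cKO by 0.70 and Psmb10 by 0.48, while Nlrc5, on its brightest probe set, was lower at -0.43. The other 7 genes differed by 0.20 or less in size.

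Heavy chains and loading partners gave the wider pathway, from lists chosen with earlier results of these data known. Of 22 heavy chain and class I-like genes, 12 had a probe set naming 1 gene, and the classical H2-K1 and H2-D1 and the Qa-1 gene H2-T23 were not among them. The median was 0.08 in AireKO and -0.28 in Sirt1cKO. Of the 12, 3 were within background in AireKO, namely H2-T24 at 0.31, H2-M5 at 0.14 and H2-Q10 at -0.67. The sizes of these 3 differences are not resolved, and the AireKO median lies close to 0, with 5 of the 12 below 0. H2-Q2 was at -1.51 and -0.87, H2-Q4 at -1.24 and -0.67 and H2-T10 at -0.63 and -0.74, and signals of near-identical H2 copies on one probe set cannot be told apart. Raet1d, which encodes a stress ligand of NKG2D, was at least 2.33-fold higher in AireKO and at least 2.14-fold higher in Sirt1cKO than in WT, where it was within background.

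Of 16 endoplasmic reticulum loading and trimming genes, 4 were at least 2-fold lower in AireKO and 0 in Sirt1cKO, beside 8.46% and 1.68% of measured genes, with medians of -0.77 and -0.30. Calr, the chaperone calreticulin that joins the loading complex, had 2746 in AireKO, 4002 in Sirt1cKO and 6427 in WT, differences of -1.23 and -0.68. The chaperone gene Hspa5 (BiP) was at -1.03 and -0.98, and the glucosidase gene Ganab at -1.52 and -0.74. Canx, which encodes calnexin, was at -0.40 and -0.15. Pdia3, the disulfide partner of tapasin, was at -0.01 and 0.12, so members of 1 complex did not share a value. Tapbpl, the tapasin relative that edits peptides outside the loading complex, was at -0.88 and -0.30, and the trimming peptidase gene Erap1 at -0.70 and -0.30.

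Constitutive proteasome genes were lower in like measure. Of 28 core and regulatory particle genes, 25 lay below 0 in AireKO and 23 in Sirt1cKO, beside 63.7% and 58.4% of measured genes, with medians of -0.41 and -0.28, close to those of the 10 genes. Psmb4, a non-catalytic beta subunit gene, was lowest with 700.8 in AireKO, 1002 in Sirt1cKO and 2465 in WT, differences of -1.81 and -1.30. Psmd14, the deubiquitinase of the lid, was highest in AireKO at 0.55, with 0.16 in Sirt1cKO. The 9 cytosolic peptidase genes, which trim or destroy peptides before transport, had medians of -0.36 and -0.13, with Dpp3 lowest at -1.26 and -0.55 and Tpp2 at -0.12 and 0.10.

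**Figure D4:**
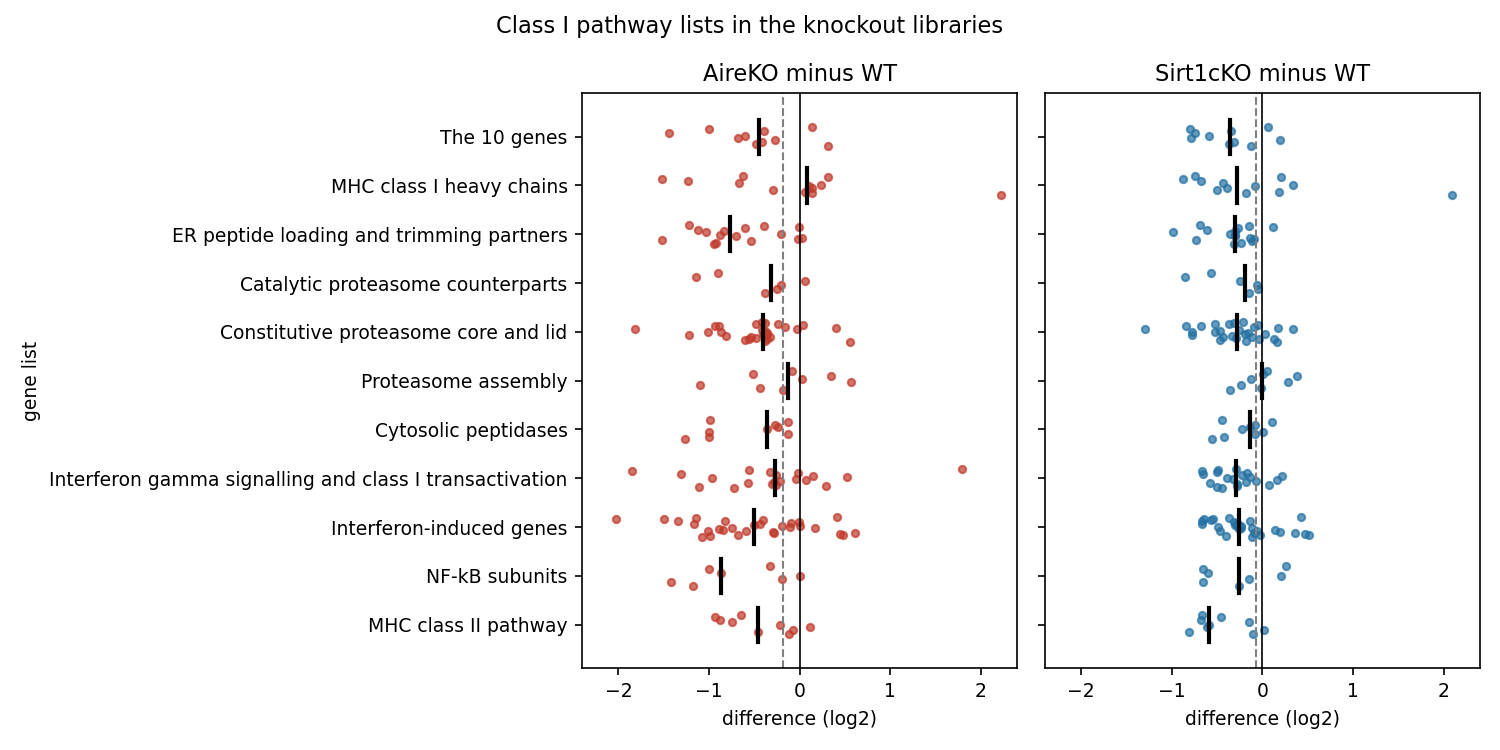
Log2 difference from WT (x axis) of the genes of each pathway list (y axis), AireKO in the left panel and Sirt1cKO in the right, 1 point per gene with a black bar at the list's median and a dashed line at the median of all measured genes. In AireKO the median of the 10 genes, -0.45, lies among those of the proteasome and interferon lists. In Sirt1cKO it is -0.36, below the medians of those lists, the lowest of which is -0.29, and above the class II median of -0.59.

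The genes that would induce the machinery were below 0 in most cases, with exceptions. Of 20 interferon gamma signalling and class I transactivation genes, 15 lay below 0 in AireKO and 17 in Sirt1cKO, beside 63.7% and 58.4% of measured genes, with medians of -0.28 and -0.29. The 2-fold line was passed downwards by 3 and upwards by 1 in AireKO, beside 8.46% and 2.68% of measured genes, and in Sirt1cKO 0 passed 2-fold either way, beside 1.68% and 0.804%. Ifngr2, a chain of the interferon gamma receptor, had 1323 in AireKO, 3012 in Sirt1cKO and 4779 in WT, differences of -1.85 and -0.67. Ifng itself had 330.9 in AireKO, 78.4 in Sirt1cKO, within background, and 95.9 in WT. Irf1, the factor that binds the Psmb9 and Tap1 promoter after interferon gamma, was at -0.26 and -0.23, and Irf2 at 0.14 and 0.22. Rfx5, a subunit of the complex through which NLRC5 and CIITA act, was at -0.04 and -0.32, and Ciita at 0.29 and -0.28.

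Interferon-induced genes outside the class I route were also below 0 in most cases. Of 29, 24 lay below 0 in AireKO and 23 in Sirt1cKO, beside 63.7% and 58.4% of measured genes. Their medians were -0.50 and -0.25, beside -0.19 and -0.07 for measured genes. At least 2-fold lower were 7 in AireKO and 0 in Sirt1cKO, beside 8.46% and 1.68% of measured genes. Irf7 had 196.7 in AireKO, 511.1 in Sirt1cKO and 800.7 in WT, and Usp18 was at -0.44 and -0.66. Among the few above 0, the chemokine genes Cxcl9, Cxcl10 and Cxcl11, which interferon gamma induces strongly, were higher than WT in both libraries, at 0.60, 0.44 and 0.48 in AireKO and at 0.36, 0.47 and 0.52 in Sirt1cKO.

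Many measured genes had a pattern like that of the 10 genes. The 5 genes nearest to their median pair of differences, by Euclidean distance over the 2 comparisons with WT, were Denr, Mfsd5, Ccnl1, Trim21 and Siah2, at distances of 0.0078 to 0.013. Of 12113 measured genes, members and genes with provisional Gm or Rik names left out, 324, or 2.67%, lay within 0.1, so the pattern is not a rare one and 3 libraries cannot pick out partners.

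Other cell types in the sort were read from marker lists. Of 14 markers of mature medullary epithelium, 13 were on the array and 0 were within background in any library, with summed intensities of 32192 in AireKO, 38474 in Sirt1cKO and 47286 in WT. Immune cells also use the immunoproteasome, and the sort for CD45- cells was meant to remove them. Ptprc, the gene of CD45, was nevertheless above background in all 3 libraries, at 200.1 in AireKO, 202.3 in Sirt1cKO and 217.6 in WT. The 9 neutrophil markers summed to 1018 in AireKO, 2302 in Sirt1cKO and 4578 in WT, with 6, 3 and 2 of them within background. Ly6g was the brightest of them at 95.6, 789.3 and 2003, and the other 8 summed to 922.8, 1513 and 2575. The 16 dendritic cell, macrophage and B cell markers summed to 4613, 5639 and 7497, with 7, 4 and 2 within background. Most of that gap was Lyz2, at 1731, 2456 and 4261, and the other 15 summed to 2882, 3183 and 3236, with a list median of -0.02 in AireKO and -0.12 in Sirt1cKO. The 12 thymocyte markers summed to 1926, 1958 and 1610, and the 11 fibroblast and endothelial markers to 5474, 3281 and 2515. Dcn made nearly all of that last gap, at 4033, 1873 and 1083, and the other 10 fibroblast and endothelial markers summed to 1441, 1408 and 1432. No marker was at 0, because every array value is above 0. The part of these cells in the lower Tap1, Tapbp, Psmb8 and Psmb9 values was not tested.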

How the data were processed

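Amplified RNA of 3 sorted libraries, 1 per genotype, was measured on Affymetrix Mouse Gene 1-ST arrays. The authors deposited probe-set intensity values that are linear, and the submitters' processing notes name RMA. How RMA's log2 values became linear again, or which version was run, is not given in the sources used here. The log2 of each deposited intensity was taken here, with no further normalization in the reported values. The table holds 34760 probe sets, and the platform annotation lists 1 symbol for 21640, several for 1321 and none for 11799. For 99.6% of the single-symbol probe sets the Entrez identifier matched a RefSeq gene of GRCm38.p6. Chromosomes and gene neighbours came from that table.

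A gene was measured when its highest library reached log2 6.81, the median of all values. Within background means at or below the 95th percentile of olfactory receptor genes in that library, and folds against such values are lower bounds computed from the percentile. The number of arrays limits the precision, and 0 comparisons have replicates.

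The members and lists were chosen with earlier results of these data known. Named genes were the 10 members, fixed pathway genes, the extreme measured members of each pathway list in each comparison with WT, the label checks Aire, Sirt1, Foxn1 and H2-Ea, and the 5 genes nearest in pattern. Xist, the Y-linked genes and the MHC neighbours were added after values were seen. Foxn1, the factor of thymic epithelial identity, had 688.2 in AireKO, 1018 in Sirt1cKO and 1415 in WT. Alternatives were quantile normalization, loess with a span of 0.3, centring on the median of measured genes or, added later, of all probe sets, other uses of probe sets, exchanged labels, an added 16 before the log, chromosome 17 left out, other thresholds and other filters. Counting and scaling were tested on simulated data. Python 3.11.15, numpy 2.4.6, pandas 2.3.3, statsmodels 0.14.6 and matplotlib 3.10.9 were used.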

Additional observations from a re-analysis of the deposited data

How the results depend on the processing

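The medians of the 10 genes in both comparisons with WT stayed below 0 under every alternative, between -0.56 and -0.18 in AireKO and between -0.48 and -0.12 in Sirt1cKO, and 8 of 10 genes stayed below 0 under each scaling. The median of Sirt1cKO minus AireKO, 0.08, reversed to -0.060 after loess, -0.097 after centring on the median of measured genes (median centring) and -0.034 relative to the median of measured genes. With the labels of the knockouts exchanged that difference only changes sign, so it was not counted. The 2 genes at least 2-fold lower in AireKO became 1 after quantile normalization, loess, median centring or an added 16, and 0 with exchanged labels, outside chromosome 17 or at 3-fold, and 4 at 1.5-fold. The count of 0 in Sirt1cKO became 2 with exchanged labels and 4 at 1.5-fold, and the count of 0 genes higher in Sirt1cKO than AireKO became 1 at 1.5-fold. These 1.5-fold counts were made on the deposited scale. Psmb8 in both comparisons and Psmb9 in AireKO fell short of 1.5-fold after quantile normalization, loess or median centring. The cause was not tested beyond what each alternative leaves out. Without replicates, a median was taken as moved when it shifted by 1.5-fold or more. Over all measured genes, 1062 lower and 336 higher in AireKO became 548 and 706 after median centring, and the share lower was 5.51% with no filter on dim genes. Median centring raised every AireKO minus WT log2 difference by 0.27. Centring on all probe sets, chosen after seeing the data, lowered it by 0.11, kept the member counts and moved the counts over measured genes to 1423 lower and 263 higher. No paired analysis was possible because each genotype has 1 library. Dim genes were least resolved in AireKO, where background was highest.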

Other observations

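NF-kB acts with interferon signals on class I promoters. Of 8 listed NF-kB genes, 7 had a probe set naming 1 gene, and Nfkb1 did not. The 7 mix the subunit genes Rela, Relb, Nfkb2 and Rel with the inhibitor-family genes Nfkbia, Nfkbie and Bcl3. In AireKO 6 of 7 were lower, beside 63.7% of measured genes, and in Sirt1cKO 5 of 7, beside 58.4%. Median log2 differences of the 7 were -0.87 and -0.26, beside -0.19 and -0.07 for measured genes. Nfkbie, an inhibitor gene, was lowest in AireKO at -1.42, with -0.65 in Sirt1cKO. Relb was at -1.00 and -0.66, and Nfkb2 at -0.87 and -0.60. Rel was at 0.00 and 0.20, and Rela had opposite signs, -0.33 and 0.26. The 8 proteasome assembly genes had medians of -0.13 in AireKO and 0.00 in Sirt1cKO. Psmg4 was at 0.57 and 0.29, and Psmd5, a chaperone gene of the regulatory particle, at -1.10 and -0.23. The 9 class II pathway genes had medians of -0.46 and -0.59, and Ctss, the protease that trims the invariant chain, was at -0.46 and -0.81, while Cd74, the invariant chain gene itself, was at -0.07 and 0.02.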
